A study of Mus musculus with 6 samples.

Results

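Transcripts of the DNA replication machinery were compared between ovaries labelled WT and ovaries labelled Hnrnpl-null. The genes were taken by name from the deposited table: 36 genes for origin licensing, the replicative helicase, polymerases, the sliding clamp and its loader, and nucleotide supply, of 25239 genes in all. All 36 were found and all 36 passed the filter on low counts, which left 14849 genes to test. The rule that names them uses no measured value, but the genes were chosen with earlier results of these data known.

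The samples were 3 WT and 3 Hnrnpl-null RNA-seq libraries of E18.5 ovary from the C57BL/6 strain, with 1 count per gene and library. Hnrnpl encodes an RNA-binding splicing regulator. The titles call the Hnrnpl-null libraries (null libraries in what follows) CKO, an abbreviation left unexplained there. The labels name no allele, no Cre driver, no cells in which the gene is lost and no pooling of animals, and nothing says that libraries came from different animals. Ovaries were dissociated with Liberase and DNase, and no sort is named. The series also names postnatal ovaries, which are not analysed here. The p-values below therefore describe the spread between these libraries, which may be technical. Summed over all of its exons, Hnrnpl was at 162 ± 14.8 CPM in WT against 184 ± 25.5 CPM in the null libraries (SD, n = 3 each, edgeR adjusted p = 0.499), so its count does not check the labels. CPM are counts relative to the library size after TMM scaling. Values of single libraries are in replicate order throughout, and means are ± SD.

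Before DNA is copied, the origin recognition complex, CDC6 and CDT1 load the MCM2-7 ring onto origins. At the start of S phase, CDC45 and the GINS complex join the ring and turn it into the moving helicase, and MCM10 assists. DNA polymerase alpha with primase then starts each strand, polymerases epsilon and delta extend it on the PCNA clamp loaded by RFC, and FEN1 and ligase I join the lagging-strand pieces. Ribonucleotide reductase, thymidylate synthase and thymidine kinase supply the deoxynucleotides. In the fetal ovary, female germ cells finish their last DNA replication before meiotic prophase, and somatic cells keep dividing around birth.

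The libraries differed in depth and in the transcripts of cell type markers. Totals ran from 8949781 to 22401419 counts. Rn45s, the precursor of ribosomal RNA, took 83.0% of WT replicate 1 and 86.1% of null replicate 3, against 18.6% to 36% elsewhere. Counts between 1 and 20 were even in 93.4% to 98.4% of cases, as when a read pair adds 2 counts. One such pair is worth 0.625 CPM in null replicate 3 and 0.0761 to 0.263 CPM in the other libraries, so low genes are least precise there. The replication genes together held 2887 counts in null replicate 3 and 5423 to 23333 counts in the others. Intervals cover the spread between libraries as edgeR estimates it.

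Oocyte is the cell type on the labels, but markers of other ovarian and blood cells were present in both groups. The 10 germ cell markers summed to 266 to 293 CPM per WT library and 103 to 127 CPM per null library, and 10 of 10 were called lower. The 8 pregranulosa markers summed to 422 to 460 CPM in WT and 509 to 584 CPM in the null libraries. Kitl (78.4 to 174 CPM in the mean) and Krt19 (97.2 to 146 CPM) were called higher, while 4 of the 8 lay below WT (median log2 fold change -0.04) and Irx3 and Fst were lower at an unadjusted p below 0.05. The 6 stroma markers summed to 4828 to 5229 CPM and 7320 to 8321 CPM, and the collagen genes Col1a1 and Col3a1 made up most of that sum. Those genes and Dcn were called higher, while Pdgfra, Tcf21 and Nr2f2 were not called, at 111%, 89.2% and 97.3% of WT. The 8 myeloid progenitor markers summed to 37.3 to 40.7 CPM in WT and 600.4 to 776 CPM in the null libraries, with 7 called higher. Among these, Ms4a3 had 0 counts in WT. The 6 mast cell markers summed to 151 to 153 CPM and 727 to 847 CPM, and the 6 leukocyte markers to 24.1 to 25.1 CPM and 108 to 121 CPM, with 5 of the 5 tested members called higher in each list. The 5 endothelial markers (132 to 159 CPM against 144 to 152 CPM) and the 6 macrophage markers (53.7 to 62.0 CPM against 61.3 to 82.2 CPM) had 0 calls by edgeR. At an unadjusted p below 0.05, Kdr was higher and Cdh5 lower among the endothelial markers, of which 4 of 5 lay below WT, and Csf1r and Adgre1 were higher among the macrophage markers. The 9 erythroid markers summed to 74.6 to 87.0 CPM in WT and 63.7 to 122 CPM in the null libraries. The erythroid list had 0 calls by edgeR and 2 of 5 tested members higher at an unadjusted p below 0.05. The globin genes Hba-a1 and Hbb-bt were listed at 0 in all 6 libraries. Hba-a1 shares exon bases with Hba-a2 and Hbb-bt with Hbb-b2, so these values do not show that globin RNA was absent. The part of these marker differences in the values below was not tested. In bulk ovary, a change in the number of cells of a type and a change of RNA per cell cannot be told apart, for the markers as for the replication genes.

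Part of the replication machinery was higher in the null libraries and the rest did not pass the test. Of the 36 genes, 6 were called higher by edgeR at an adjusted p below 0.05: Mcm7, Rrm2, Mcm3, Rrm1, Cdt1 and Mcm2, at 144% to 194% of WT. The other 30 were not called. That is 16.7% of the replication genes, where 2.67% of all tested genes were called higher. Called lower were 0 of the 36 by edgeR, DESeq2 and limma-voom, where edgeR called 1.79% of all tested genes lower, and 0 of the 36 were lower at an unadjusted p below 0.05. At that level 10 of the 36 were higher, where 1480 of all 14849 tested genes were higher and 1266 lower. The median log2 fold change was 0.18 for the replication genes and -0.01 for all tested genes. The replication genes were also better expressed than most, with a median of 17.2 CPM against 10.8 CPM over all tested genes.

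In 14 of the 36 genes every null library lay above every WT library, which is 38.9% against 12.4% of all tested genes. In 1 of the 36, Gins4, every null library lay below, against 13.2% of all tested genes. The 14 were the 6 called genes with Mcm4, Mcm5, Mcm6, Cdc6, Pola1, Pcna, Tyms and Tk1. In the remaining 21 genes the groups overlapped.

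**Figure D1:**
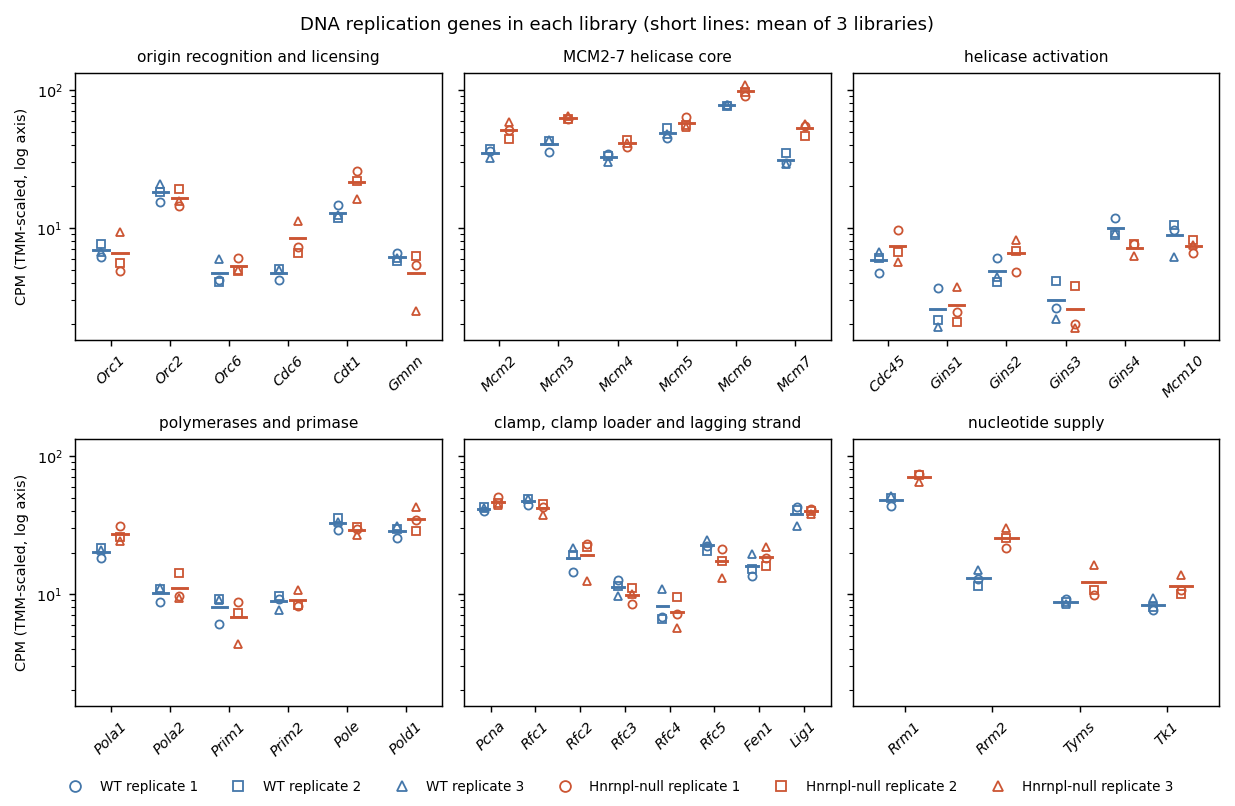
Level of each of the 36 replication genes in each library (CPM after TMM scaling, log axis), in 6 panels by role. Open symbols are libraries (circle, square and triangle for replicates 1, 2 and 3) and short lines are means of 3 libraries. The groups separate in all 6 MCM2-7 genes and all 4 nucleotide supply genes, and overlap for most helicase activation and clamp loader genes.

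The MCM2-7 subunits form the ring that unwinds DNA, and all 6 were higher in every null library than in any WT library. Summed over the ring, the level was 258 to 278 CPM in WT and 347 to 384 CPM in the null libraries, a mean of 137% of WT. Mcm7 (chromosome 5, 138164583 to 138171883, build mm10 as for all gene coordinates) was at 29.4, 35.2 and 29.1 CPM in WT replicates 1, 2 and 3, and 54.6, 46.7 and 56.9 CPM in the null libraries in the same order. All 3 null libraries were clearly above the WT libraries. It rose to 167% of WT (log2 fold change 0.74 ± 0.13 SE, adjusted p = 0.00583), and its call was kept whichever of the 6 libraries was left out. Mcm3 (chromosome 1, 20802968 to 20820312) was at 35.6, 42.9 and 43.1 CPM in the WT libraries and 62.0, 61.4 and 65.0 CPM in the null libraries. Its null libraries lay close together. It rose to 154% of WT (log2 fold change 0.62 ± 0.12, adjusted p = 0.00964), and the call was lost without WT replicate 1 (adjusted p then 0.0548 in edgeR). Mcm2 (chromosome 6, 88883474 to 88898780), one of the ring subunits that the CDC7 kinase phosphorylates, was at 36.2, 37.3 and 32.3 CPM in the WT libraries and 51.1, 44.2 and 58.7 CPM in the null libraries. Null replicate 3 was the highest and replicate 2 the lowest of its group. It rose to 144% of WT (log2 fold change 0.53 ± 0.13, adjusted p = 0.0409), but the call was lost when any 1 of the 6 libraries was left out (adjusted p then 0.0502 to 0.15 in edgeR).

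The other 3 ring subunits were not called, with smaller differences. Mcm5 was at 45.1, 53.1 and 48.0 CPM in the WT libraries and 63.9, 55.6 and 53.7 CPM in the null libraries, so the lowest null library was only just above the highest WT library. Its ratio of Hnrnpl-null to WT was 1.19 (95% interval 0.991 to 1.42, adjusted p = 0.298). Mcm6 was at 77.4 ± 0.928 and 98.5 ± 8.75 CPM and Mcm4 at 32.6 ± 2.32 and 41.0 ± 2.24 CPM in WT and null (SD, n = 3 each). Their ratios were 1.27 (1.08 to 1.49, adjusted p = 0.10) and 1.26 (1.05 to 1.51, adjusted p = 0.162). DESeq2 called Mcm6 as well (DESeq2 adjusted p = 0.0486). The intervals of the 6 subunits overlap, and differences between their fold changes were not tested.

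The ring proteins act in equal numbers, so their RNA levels were also set side by side per length of exon. That length is the exonic length of the deposited table, so the order of genes can depend on which exons are annotated. On that scale Mcm6 was highest and Mcm4 lowest in all 6 libraries, at 17.5 ± 0.209 and 9.09 ± 0.645 CPM per kb in WT and 22.2 ± 1.97 and 11.4 ± 0.625 CPM per kb in the null libraries. The highest subunit exceeded the lowest by 1.82 to 2.10 times in WT and by 1.8 to 2.12 times in the null libraries. Between those ends the WT order was Mcm5 (14.2 ± 1.19), Mcm3 (13.4 ± 1.42), Mcm7 (10.8 ± 1.18) and Mcm2 (10.5 ± 0.790 CPM per kb). Mcm5 and Mcm3 lay within each other's spread, as did Mcm7 and Mcm2. In Hnrnpl-null the order was Mcm3 (20.7 ± 0.641), Mcm7 (18.3 ± 1.85), Mcm5 (16.8 ± 1.57) and Mcm2 (15.2 ± 2.16 CPM per kb). The ring summed to 72.9, 79.4 and 73.9 CPM per kb in the WT replicates and to 104.5, 99.5 and 110.1 CPM per kb in the null replicates.

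All 4 genes of nucleotide supply were higher in every null library than in any WT library, and both ribonucleotide reductase subunits were called. Their summed level was 73.2 to 83.9 CPM in WT and 117 to 124 CPM in the null libraries, a mean of 153% of WT. Rrm2 (chromosome 12, 24708254 to 24714146), the small subunit whose level follows S phase, was at 12.9, 11.4 and 14.9 CPM in the WT libraries and 21.7, 25.4 and 30.0 CPM in the null libraries. The gap between the groups exceeded the range within WT. Rrm2 rose to 194% of WT (log2 fold change 0.96 ± 0.18, adjusted p = 0.00751), the largest of the 36 fold changes, and its call was lost without WT replicate 2 (adjusted p then 0.0569 in edgeR). Rrm1 (chromosome 7, 102441695 to 102469771), the large catalytic subunit, was at 43.5, 49.7 and 51.2 CPM in the WT libraries and 74.5, 73.2 and 64.4 CPM in the null libraries. The 3 null libraries lay well clear of the WT libraries. It rose to 147% of WT (log2 fold change 0.56 ± 0.12, adjusted p = 0.0175), and the call did not survive without WT replicate 1 or 2 or null replicate 1 or 2 (adjusted p then 0.0734 to 0.0897 in edgeR).

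The thymidylate enzymes of the group were not called. Tk1, the cytosolic thymidine kinase, was at 7.64, 8.04 and 9.37 CPM in the WT libraries and 10.7, 9.94 and 13.7 CPM in the null libraries, narrowly apart. Its ratio was 1.33 (95% interval 0.961 to 1.85, adjusted p = 0.342), and its exons share bases with Afmid. Tyms, thymidylate synthase, was at 8.78 ± 0.412 and 12.3 ± 3.48 CPM, with null replicate 3 at 16.2 CPM (ratio 1.34, 0.95 to 1.89, adjusted p = 0.36).

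Of the origin licensing genes, Cdt1 was called higher and its inhibitor Gmnn was not called. The 6 licensing genes summed to 51.4 to 57.0 CPM in WT and 60.0 to 64.6 CPM in null, a mean of 117% of WT. Most of that rise was Cdt1, which went from a mean of 12.9 to 21.4 CPM. The median log2 fold change of the 6 genes was 0.015, with 3 above 0 and 3 below. Cdt1 (chromosome 8, 122568015 to 122573130), which brings the ring to origins, was at 14.6, 11.8 and 12.4 CPM in the WT libraries and 25.9, 22.1 and 16.2 CPM in the null libraries. Null replicate 3 was the nearest to WT. Cdt1 rose to 171% of WT (log2 fold change 0.77 ± 0.19, adjusted p = 0.0355), but the call was kept only without null replicate 3 and lost without any other library (adjusted p then 0.0517 to 0.162 in edgeR). Gmnn, which encodes geminin, was at 6.59, 5.72 and 6.06 CPM in the WT libraries and 5.4, 6.24 and 2.5 CPM in the null libraries, the last from 8 counts. The groups overlapped (ratio 0.838, 95% interval 0.529 to 1.33, adjusted p = 0.718). Cdc6, the ATPase that works with CDT1, was at 4.22, 5.02 and 4.96 CPM in the WT libraries and 7.34, 6.62 and 11.2 CPM in the null libraries. Its ratio was close to that of Cdt1 (ratio 1.68, 1.11 to 2.54), but it was not called (adjusted p = 0.163). Among the licensing genes, the subunits of the origin recognition complex (Orc1, Orc2 and Orc6) overlapped between the groups. Of the subunits outside this group, Orc3 overlapped too. Orc4 and Orc5 were lower in every null library than in any WT library, but were not called. Their ratios were 0.744 and 0.688 (edgeR adjusted p = 0.202 and 0.432), and Orc4 shares exon bases with Acvr2a. Orc1 was at 6.89 ± 0.768 and 6.59 ± 2.43 CPM, Orc2 at 18.2 ± 2.67 and 16.4 ± 2.54 CPM, and Orc6 at 4.73 ± 1.03 and 5.31 ± 0.658 CPM in WT and Hnrnpl-null, with adjusted p of 0.723 to 0.809.

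The partners that turn the loaded ring into an active helicase were not called. Of the 6, neither edgeR nor DESeq2 nor limma-voom called any (0 calls) and 0 reached an unadjusted p below 0.05. Over all 14849 tested genes edgeR called 2.67% higher and 1.79% lower, and 2746 had an unadjusted p below 0.05. At those shares, 0 calls among 6 genes do not set the group apart. The summed level of the 6 genes was 30.7 to 38.7 CPM in WT and 33.1 to 35.3 CPM in the null libraries, a mean of 96.5% of WT. Gins2 had the highest fold change, at 6.06, 4.06 and 4.41 CPM in WT and 4.81, 6.85 and 8.12 CPM in the null libraries. The groups overlapped (ratio 1.34, 95% interval 0.848 to 2.11), and its exons share bases with Gse1. Gins4 had the lowest, at 11.9, 8.95 and 9.23 CPM in WT and 7.63, 7.61 and 6.25 CPM in the null libraries. Every null library was below every WT library, yet it was not called (ratio 0.738, 0.526 to 1.04, adjusted p = 0.329). Cdc45 was at 5.83 ± 0.991 and 7.35 ± 2.13 CPM, Gins1 at 2.59 ± 0.957 and 2.76 ± 0.873 CPM, Gins3 at 3.0 ± 1.02 and 2.57 ± 1.08 CPM, and Mcm10 at 8.84 ± 2.32 and 7.43 ± 0.826 CPM. The lowest count of any of the 36 genes was 6, for Gins3 in null replicate 3. The interval for Gins1, 0.514 to 2.05, spans the ratios of all 6 called genes, so a change of their size was not detectable for it at this depth.

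**Figure D2:**
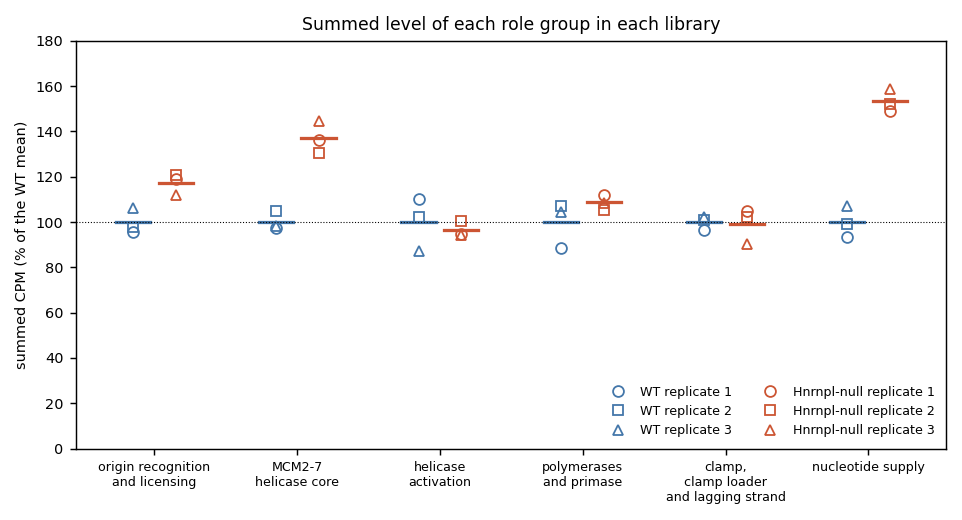
Summed CPM of each role group in each library, as a percentage of the mean of the 3 WT libraries (y axis from 0). Symbols are libraries and short lines are group means. MCM2-7 lies at 131% to 144% and nucleotide supply at 149% to 159% in the null libraries, while helicase activation and the clamp group straddle the WT level.

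Polymerase genes were not called. They summed to 96.6 to 116 CPM in WT and 115 to 122 CPM in null, a mean of 109% of WT. Of the 6, neither edgeR nor DESeq2 nor limma-voom called any (0 calls), and Pola1 alone had an unadjusted p below 0.05. With 2.67% of all tested genes called higher and 1.79% lower by edgeR, 0 calls among 6 genes do not set the group apart. Pola1, the catalytic subunit of DNA polymerase alpha, was at 18.2, 21.5 and 20.9 CPM in the WT libraries and 31.0, 25.8 and 24.4 CPM in the null libraries. The groups did not overlap (ratio 1.35, 95% interval 1.08 to 1.69, adjusted p = 0.138). Prim1, the small primase subunit, had the lowest fold change, at 6.06, 9.20 and 9.10 CPM in WT and 8.77, 7.31 and 4.37 CPM in the null libraries (ratio 0.877, 0.581 to 1.32). Here WT replicate 1 and null replicate 3, which are the libraries richest in Rn45s, were the low ones. Pold1, catalytic in polymerase delta, was at 28.8 ± 3.14 and 35.2 ± 7.03 CPM, and Pole, catalytic in polymerase epsilon, at 32.6 ± 3.19 and 29.0 ± 1.97 CPM. Pola2 was at 10.2 ± 1.32 and 11 ± 2.65 CPM and Prim2, the large primase subunit, at 8.88 ± 1.03 and 9.07 ± 1.35 CPM. For Pole the interval of the ratio, 0.731 to 1.09, lies below the fitted ratio of each of the 6 called genes. The differences between these fold changes were not tested.

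The clamp, its loader and the enzymes of the lagging strand included no called gene. Their summed level was 196 to 208 CPM in WT and 183 to 213 CPM in the null libraries, a mean of 99.1% of WT. Of the 8, neither edgeR nor DESeq2 nor limma-voom called any (0 calls), and 0 had an unadjusted p below 0.05. Over all 14849 tested genes edgeR called 2.67% higher and 1.79% lower, and 2746 had an unadjusted p below 0.05. At those shares, 0 calls among 8 genes do not set the group apart. Pcna, the sliding clamp, had the highest level of the 36 genes per length of exon, at 32.9 ± 1.25 CPM per kb in WT and 37.1 ± 2.36 CPM per kb in the null libraries. In CPM it was at 39.8, 42.9 and 41.9 in WT and 50.1, 45.9 and 44.4 in the null libraries, all above WT but by little (ratio 1.13, 95% interval 0.951 to 1.34). The upper bound of the Pcna interval lies below the fitted ratio of each of the 6 called genes. Yet it overlaps the intervals of Mcm2 (from 1.18), Rrm1 (from 1.23), Cdt1 and Mcm3 (from 1.29 each). The intervals of Mcm7 (from 1.38) and Rrm2 (from 1.49) lie above it. Differences between these fold changes were not tested. Fen1, the flap nuclease, had the highest fold change of the 8, at 13.4, 15.1 and 19.5 CPM in WT and 18.3, 16 and 21.9 CPM in the null libraries. The groups overlapped (ratio 1.14, 0.859 to 1.51), and its exons share bases with Tmem258. Rfc5 had the lowest, at 22.1, 20.6 and 24.7 CPM in WT and 21.0, 17.5 and 13.1 CPM in the null libraries. Null replicate 3 was the lowest library (ratio 0.789, 0.606 to 1.03, adjusted p = 0.33).

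The remaining loader subunits and ligase I showed small differences in either direction. Rfc1, the large loader subunit, was at 47.1 ± 2.68 and 41.8 ± 4.18 CPM, with an interval of the ratio of 0.746 to 1.07. Rfc2 was at 18.4 ± 3.56 and 19.2 ± 5.82 CPM, Rfc3 at 11.2 ± 1.5 and 9.84 ± 1.25 CPM, and Rfc4, whose exons share bases with Eif4a2, at 8.15 ± 2.44 and 7.45 ± 1.96 CPM. Lig1, whose exons share bases with Zswim9, was at 38.0 ± 6.25 and 39.9 ± 1.65 CPM, with the WT spread set by 30.9 CPM in replicate 3.

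**Figure D3:**
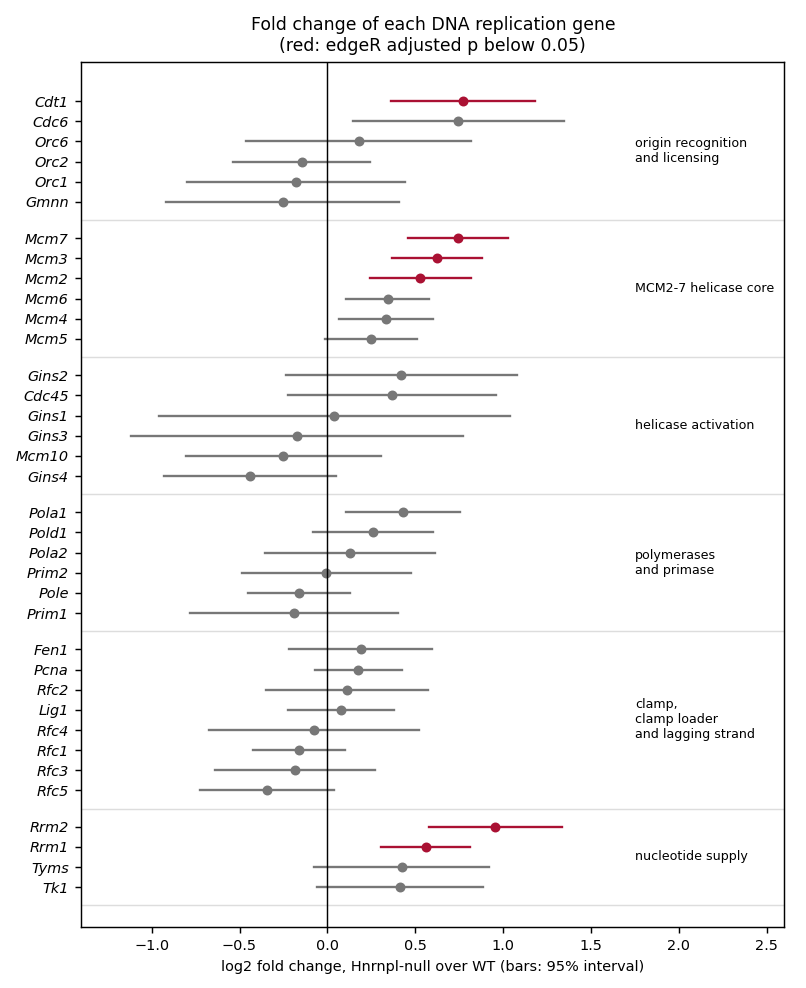
Log2 fold change of Hnrnpl-null over WT for each of the 36 replication genes, grouped by role and ordered within each role. Points are edgeR estimates, bars are 95% intervals, and red marks an adjusted p below 0.05. The 6 red genes fall in licensing (Cdt1), the MCM2-7 ring (Mcm7, Mcm3, Mcm2) and nucleotide supply (Rrm2, Rrm1).

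The promoters of the called genes are shown because genes of this machinery are textbook targets of the E2F factors, which switch on S phase genes through GC-rich sites, and of NF-Y, which binds CCAAT boxes. RefSeq promoter windows of GRCm38.p6, from 250 bases before to 50 bases after each gene start, were matched by symbol for 28 of the 36 genes (33 windows). The E2F-type motifs searched, on both strands, were TTCCCGC or TTCGCGC or TTGCCGC or TTGGCGC. The 250 bases before the start are printed for the 5 called genes whose window holds one. E2F-type and CCAAT matches are in capitals, and a match on the opposite strand appears as its reverse complement. The regions are chr1:20820313-20820562 for Mcm3 and chr5:138171884-138172133 for Mcm7, both on the minus strand. On the plus strand are chr7:102441445-102441694 for Rrm1, chr12:24708004-24708253 for Rrm2 and chr8:122567765-122568014 for Cdt1. Of the 2 windows of Mcm7, the one that ends at the gene start of the deposited table is shown.
Mcm3: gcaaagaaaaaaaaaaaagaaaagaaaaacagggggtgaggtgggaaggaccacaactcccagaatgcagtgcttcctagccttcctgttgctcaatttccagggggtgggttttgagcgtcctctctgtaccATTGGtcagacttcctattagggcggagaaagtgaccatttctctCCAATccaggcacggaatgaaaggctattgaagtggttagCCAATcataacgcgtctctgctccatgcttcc
Mcm7: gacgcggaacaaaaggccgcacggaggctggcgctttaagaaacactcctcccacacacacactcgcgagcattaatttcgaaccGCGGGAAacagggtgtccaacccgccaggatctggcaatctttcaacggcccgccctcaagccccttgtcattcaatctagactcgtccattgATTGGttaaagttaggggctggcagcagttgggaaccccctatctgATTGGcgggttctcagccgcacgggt
Rrm1: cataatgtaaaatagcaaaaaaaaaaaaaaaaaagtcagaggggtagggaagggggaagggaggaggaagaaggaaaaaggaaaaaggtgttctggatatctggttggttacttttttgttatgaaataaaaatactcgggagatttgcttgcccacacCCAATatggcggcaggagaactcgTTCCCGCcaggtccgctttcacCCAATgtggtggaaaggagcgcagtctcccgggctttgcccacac
Rrm2: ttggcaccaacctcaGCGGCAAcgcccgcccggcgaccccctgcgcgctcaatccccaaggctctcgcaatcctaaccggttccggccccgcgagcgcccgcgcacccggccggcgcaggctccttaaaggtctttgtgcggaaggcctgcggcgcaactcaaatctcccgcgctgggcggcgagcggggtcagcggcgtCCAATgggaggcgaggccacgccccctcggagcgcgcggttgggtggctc
Cdt1: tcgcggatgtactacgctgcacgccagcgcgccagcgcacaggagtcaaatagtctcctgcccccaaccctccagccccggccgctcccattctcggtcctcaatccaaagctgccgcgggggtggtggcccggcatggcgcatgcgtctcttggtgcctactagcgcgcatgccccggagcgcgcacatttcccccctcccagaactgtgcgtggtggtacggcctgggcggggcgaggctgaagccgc

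The Mcm7 match begins 165 bases before the start, on the opposite strand, and that of Rrm1 67 bases before it. That of Rrm2 begins 235 bases before the start, on the opposite strand. The other Mcm7 window, inside the gene, holds 1 more match, 113 bases before its own start. For Mcm3 and Cdt1 the E2F-type match of the window lies outside the 250 bases shown, and Mcm2 had none in its window. CCAAT boxes lie 32 and 72 bases before the start of Mcm3, with another on the opposite strand at 117. Over all windows matched, 18 of 28 replication genes (64.3%) held an E2F-type motif, against 18.9% of tested genes with a window and 10.9% of all genes with one. A CCAAT box was held by 18 of 28 (64.3%), against 42.4% of tested genes and 41.1% of all genes. The CHR-type hexamers TTTGAA or TTCGAA, on either strand, were held by 6 of 28 (21.4%), against 16.3% and 21.7%. These shares are descriptions with no test. Of the 6 called genes, 5 held an E2F-type motif and 5 held a CCAAT box.

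Other genes of DNA replication and S phase, taken from a list of 65, were mostly not called. All 65 were tested, and 2 (3.08%) were called higher and 0 lower by edgeR. Lower calls were also 0 by DESeq2 and limma-voom, while 11 were higher and 3 lower at an unadjusted p below 0.05. The groups did not overlap in 9 genes that were higher (13.8%) and 5 that were lower (7.69%), against 12.4% and 13.2% of all tested genes. Over the 65 genes the median log2 fold change was -0.003. Pclaf, the PCNA-associated factor, was at 8.17, 10.7 and 12.4 CPM in the WT libraries and 21.6, 25.7 and 25.6 CPM in the null libraries. Every null library was well above WT, and Pclaf rose to 230% of WT (log2 fold change 1.2 ± 0.19, adjusted p = 0.00222), a call kept whichever library was left out. E2f8, a repressor of S phase genes that E2F factors induce, was at 4.48, 1.91 and 2.07 CPM in the WT libraries and 6.91, 6.62 and 8.75 CPM in the null libraries. It rose to 272% of WT (log2 fold change 1.45 ± 0.37, adjusted p = 0.041), with exons that share bases with Gm2788. The E2f8 call did not survive without WT replicate 2 or 3 or null replicate 1 or 2 (adjusted p then 0.102 to 0.19 in edgeR). By role, the median log2 fold change was 0.21 for 16 single-strand binding and fork factors and -0.14 for 11 other initiation factors. It was -0.15 for 6 other polymerase subunits, 0.09 for 7 other nucleotide supply genes, -0.05 for 7 genes of replication-coupled chromatin and -0.003 for 15 S phase regulators.

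Mitosis genes gave a mixed picture beside the replication genes. Of 27 tested, Top2a was called higher (3.7%) and Cenpf and Espl1 were called lower (7.41%), against 2.67% and 1.79% of all tested genes. The groups did not overlap in 7 genes that were higher (25.9%) and 4 that were lower (14.8%), against 12.4% and 13.2% of all tested genes. At an unadjusted p below 0.05 by edgeR, 7 were higher and 4 lower. The median log2 fold change was 0.19, beside 0.18 for the replication genes. Top2a, the topoisomerase that untangles replicated DNA, rose from 65.1 ± 5.49 to 92.4 ± 8.34 CPM (142% of WT, adjusted p = 0.0265), but the call did not survive without WT replicate 1 or 2 or null replicate 1 or 2 (adjusted p then 0.0778 to 0.134 in edgeR). Cenpf, a kinetochore protein, fell from 33.0 ± 3.88 to 19.3 ± 2.99 CPM (58.9% of WT, adjusted p = 0.0159), a call lost without WT replicate 3 or null replicate 2 (adjusted p then 0.0834 to 0.0974 in edgeR). Espl1, the separase that cuts cohesin, fell from 55.7 ± 6.33 to 36.3 ± 4.93 CPM (65.9% of WT, adjusted p = 0.0241). The Espl1 call did not survive without WT replicate 2 or 3 or null replicate 1 or 2 (adjusted p then 0.0599 to 0.105 in edgeR). The replication genes held 0 lower calls among 36, which is near the 1.79% of all tested genes called lower. The difference between the lists was not tested.

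**Figure D4:**
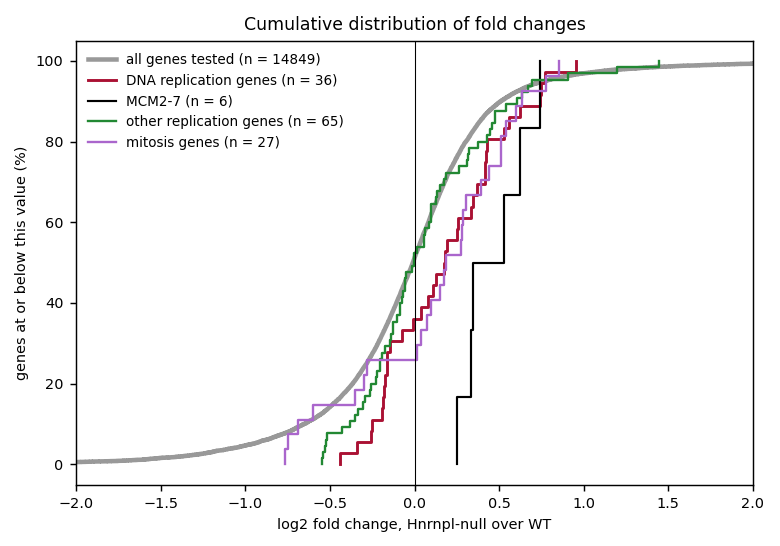
Cumulative share of genes (y axis, %) at or below each log2 fold change of Hnrnpl-null over WT (x axis, -2 to 2), for all 14849 tested genes, the 36 replication genes, the 6 MCM2-7 genes, 65 other replication genes and 27 mitosis genes. The MCM2-7 curve starts at 0.25, while the curve of the other replication genes follows that of all genes around its median of -0.003.

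The calls differed in how firmly they stood. Leaving out 1 library gave 2 to 5 of the 36 genes called higher: 2 without WT replicate 1 or without WT replicate 2, 3 without null replicate 1 or without null replicate 2, 4 without WT replicate 3, and 5 without null replicate 3. Over all genes these fits called 249 to 853 genes, against 663 with all 6 libraries. Without both libraries richest in Rn45s, 5 of the 6 genes stayed called and Mcm2 did not. The 6 called genes kept their upward direction in all 20 alternative settings. With library totals alone and no scaling factor, 0 of the 36 and 4 of all genes were called.

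**Figure D5:**
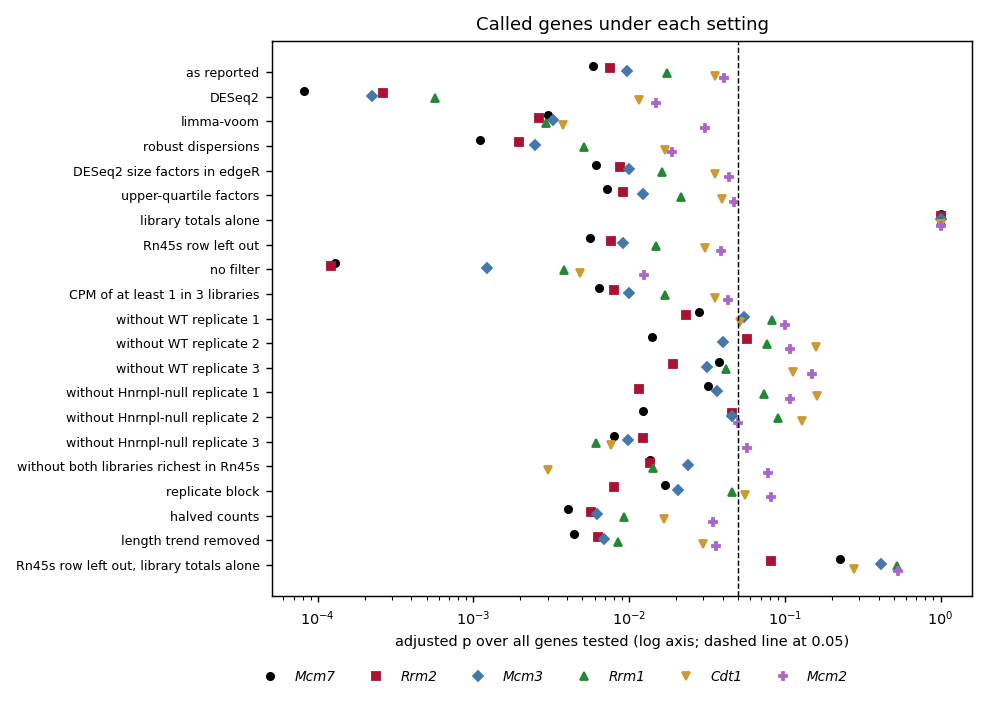
Adjusted p of the 6 called genes (x axis, log scale, dashed line at 0.05) under the reported fit and 20 alternative settings (y axis). Mcm7 lies left of the line in all settings but the 2 that use library totals alone, and Mcm2 lies right of it whenever a library is left out.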

How the data were processed

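RNA from ovary was measured in 6 libraries. The authors deposited 1 table of raw counts per gene, in the layout of featureCounts per the file headers, with exon coordinates and exonic length. Build mm10, featureCounts 2.0.6, HISAT2 2.2.1 and STAR 2.7.11a, per the submitters' processing notes, are named without role or order. Strand setting, multiple mapping and annotation are not given in the sources here.

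The main test was the two-sided quasi-likelihood test of edgeR 4.0.16 under R 4.3.3 (filterByExpr, TMM, glmQLFit, glmQLFTest), with genotype alone in the design and Benjamini-Hochberg adjustment over all 14849 tested genes, called below 0.05. Standard errors come from the F statistic. CPM per kb is CPM divided by exonic length. Alternatives used DESeq2 1.42.0, limma 3.58.1, other scalings and filters, robust dispersions, left-out libraries, a replicate block, halved counts, a length correction and other thresholds. The test was tried on simulated counts, with no outcome given here, so how often it finds changes of the size reported is not shown. No library was taken as a repeat of another (halved counts, chi-square over degrees of freedom at least 5.62 within groups).

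The genes, lists and tests were chosen with earlier results of these data known. Values in every library are given for called genes and for the highest and lowest fold change of each role, other listed genes are named where called, and the ratios and the values of other genes were chosen after they were seen. Protein sequences were not used here.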

Additional observations from a re-analysis of the deposited data

How the results depend on the processing

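The 36 replication genes had 0 lower calls in each of the 22 settings tried, where the reported fit called 1.79% of all tested genes lower. Among the 36 genes, the number of higher calls was 0 with library totals alone. It was also 0 with totals after the Rn45s row was left out, a setting chosen after seeing the data. It was 3 at an adjusted p below 0.01 and 2 to 5 when 1 library was left out. Over all genes, 663 calls became 1068 with DESeq2, 1273 with limma-voom, 1104 with no filter, 236 and 1092 at adjusted p below 0.01 and 0.10, 4 and 255 in the 2 settings with totals, and 249 to 853 when 1 library was left out. The median log2 fold change of the replication genes was 0.11 to 0.24 when 1 library was left out and 0.094 with totals and no Rn45s row, against 0.18. The 65 other replication genes had 2 higher calls with edgeR, 3 with DESeq2 and 5 with limma-voom. The cause was not tested.

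Signs changed only among genes that were not called. When 1 library was left out, log2 fold changes ran from -0.41 to 0.0123 for Orc1, -0.14 to 0.35 for Gins1, -0.62 to 0.16 for Gins3, -0.11 to 0.24 for Pola2, -0.0952 to 0.071 for Prim2, -0.0267 to 0.29 for Rfc2, -0.30 to 0.20 for Rfc4 and -0.0454 to 0.16 for Lig1. Rfc4 was at 0.0496 with limma-voom, Prim2 at 0.0034 without the Rn45s row, and Fen1 at -0.0036 without both libraries richest in Rn45s. Gins1 was at -0.0040 with halved counts and -0.0099 with totals and no Rn45s row. Of 720 values over 36 genes and 20 settings, 666 kept direction and side of the threshold.

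No pairing of the libraries by replicate number was seen, though with 3 libraries a group this check could not exclude one. Deviations from the group means correlated at -0.12, 0.09 and -0.09 for numbers 1, 2 and 3, and 2 of 6 libraries correlated best with their own number. With the replicate block, 4 of the 36 genes and 444 of all genes were called. With 3 libraries a group and 1757572 counts outside Rn45s in the shallowest, small changes of the low genes are beyond reach.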

Other observations

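Some balances within the machinery, chosen after their values were seen, are given as values with no test. The ratio of Cdt1 to Gmnn, the licensing factor over its inhibitor, was 2.22, 2.06 and 2.05 in CPM in the WT libraries and 4.80, 3.54 and 6.50 in null libraries 1 to 3, the last resting on 8 counts of Gmnn. The groups did not overlap. The MCM2-7 ring over the GINS complex, both summed in CPM per kb, was 3.88, 5.65 and 5.43 in WT and 7.93, 6.39 and 6.71 in the null libraries. The ratio of Rrm2 to Rrm1 in CPM was 0.297, 0.229 and 0.291 in WT and 0.291, 0.347 and 0.466 in the null libraries, with groups that overlap.

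The MCM relatives outside the replicative ring were not called. Mcm8, a helicase of homologous recombination, was at 13.2, 13.5 and 12.7 CPM in the WT libraries and 10.8, 8.91 and 6.87 CPM in the null libraries. All 3 null libraries were lower, but Mcm8 was not called (ratio 0.698, 95% interval 0.512 to 0.952, edgeR adjusted p = 0.196). Mcm9, its partner, was at 13.3 ± 3.34 and 14.4 ± 3.21 CPM (SD, n = 3 each). Mcmdc2, which acts in meiotic recombination, was at 1.58, 1.41 and 2.21 CPM in the WT libraries and 2.28, 1.68 and 0 CPM in the null libraries. Whether the fold changes of these genes differ from those of the ring was not tested.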
